A study of Mus musculus with 6 samples.

Results

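The immunity-related GTPases (IRGs) studied here are 6 mouse genes, Irgm1, Irgm2, Igtp, Iigp1, Tgtp1 and Tgtp2, followed in infarcted hearts that received miR-19a/19b mimic or control mimic. They were chosen by name as members of this family, and all 6 were found among the 26012 genes of the deposited expression table with a mean across hearts no lower than 1 normalized count. All 6 are therefore among the 21126 genes that were tested. Each of the 6 had a lower mean in the miR-19a/19b hearts, at between 57.2% (Igtp) and 78.1% (Tgtp1) of the control mean. In 4 of them the highest miR-19a/19b heart was below the lowest control heart, as it was in 5.3% of all genes tested. No difference passed an adjusted p of 0.05 in limma, the test used throughout.

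IRG proteins are GTPases of the cell-autonomous defence that interferon-γ (IFN-γ) switches on. Effector IRGs, such as Iigp1 (Irga6) and the Tgtp proteins (Irgb6), load onto the vacuole that surrounds an intracellular pathogen and break its membrane. Regulatory IRGs, namely Irgm1, Irgm2 and Igtp (Irgm3), sit on the cell's own membranes and keep the effectors there inactive. IFN-γ, made mainly by NK cells and T cells, signals through Ifngr1 and Ifngr2 and the kinases Jak1 and Jak2 to factors that bind GAS elements. Type I interferon acts through a complex with Stat2 and Irf9, which binds ISRE elements. Interferon-stimulated genes are known to be induced after infarction, in leukocytes that enter the heart among other cells.

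The 6 libraries came from ventricles of male C57BL/6 mice that were 8 weeks old when the left anterior descending coronary artery was ligated. During the same operation 10 μg of mimic per heart was injected into the myocardium, control mimic in 3 hearts and miR-19a/19b mimic in 3. Tissue was taken 4 days after myocardial infarction (MI), and polyadenylated RNA was sequenced. All 6 hearts were infarcted and all 6 received a mimic, so neither MI nor injection separates the groups. Polyadenylated RNA does not report the mimics themselves, so no transcript checks which heart received which.

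Reads assigned to genes numbered from 19398196 to 23645308 in a heart. The values are normalized counts, which are reads divided by a size factor of each library. The cardiomyocyte markers, Myh6, Actc1 and Tnnt2 among them, were abundant in every heart, with a summed level over 9 genes between 329800 and 951000 normalized counts. A pair of libraries stood apart. The library labelled miR-19a/19b replicate 1 held 14 skeletal muscle genes at a summed 3543 normalized counts, where the other 5 hearts held 37.1 to 76.1. The library labelled miR-19a/19b replicate 3 had the lowest cardiomyocyte sum, 329800, against 542000 to 692900 in the control hearts and 839300 and 951000 in the other miR-19a/19b hearts. Each member's difference is therefore also given without these libraries.

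The injected agents mimic a miRNA family with a shared seed, the bases 2 to 8 that pair with target transcripts. The mature mouse forms in RefSeq (GRCm38.p6) are shown because they define the treatment, with the seed in capitals. They differ at 1 base outside the seed, and the synthetic mimics' own sequences were not used here.
mmu-miR-19a-3p, chr14:115044048-115044070, plus strand: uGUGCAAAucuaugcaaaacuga
mmu-miR-19b-3p, chr14:115044358-115044380, plus strand: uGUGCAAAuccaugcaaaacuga
The second copy of miR-19b lies at chrX:52741991-52742013, minus strand, and has the same mature sequence.

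Matches to this seed were sought in the longest annotated 3′ UTR of each member, as the letters TTTGCACA, TTTGCAC or TTGCACA. The UTRs ran from 556 bases in Irgm1 to 2110 bases in Irgm2. None of the 6 held a match. Of 15866 tested genes with an annotated 3′ UTR, 3070 (19.3%) held at least 1. The absence of these letters says nothing on other ways in which a miRNA may act.

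Promoter sequences from RefSeq (GRCm38.p6) were matched by symbol for 5 of the 6 members, all but Iigp1, and each window ran from 250 bases before to 50 after the transcription start. The stretches of 40 bases below are shown because they hold the letters that interferon-activated factors are known to read. Capitals mark the GAS motif TTCNNNGAA and the core of the ISRE, GAAANNGAAA, both searched on both strands. Positions are counted from the RefSeq start as 0.
Igtp, chr11:58199500-58199539, plus strand, -56 to -17: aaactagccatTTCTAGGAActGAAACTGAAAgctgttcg
Irgm2, chr11:58214891-58214930, plus strand, -86 to -47: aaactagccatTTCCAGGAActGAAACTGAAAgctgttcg
Tgtp1, chr11:48992306-48992345, minus strand, -99 to -60: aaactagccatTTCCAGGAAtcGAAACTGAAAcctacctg
Tgtp2, chr11:49064265-49064304, minus strand, -92 to -53: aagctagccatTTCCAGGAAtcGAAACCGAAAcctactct
Irgm1, chr11:48871427-48871466, minus strand, -46 to -7: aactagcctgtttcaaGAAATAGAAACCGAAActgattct

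In Igtp, Irgm2, Tgtp1 and Tgtp2 the GAS match was followed after 2 bases by the ISRE core. Irgm1 held no GAS match in its window and instead 2 overlapping ISRE cores, from -30 to -21 and from -24 to -15. The ISRE core stood in 5 of 5 member promoters and in 1131 of 32851 promoters of the same length (3.44%). GAS stood in 4 of 5 member promoters and in 2726 of all (8.3%). The 2 motifs in this order and spacing, a pattern chosen after these promoters had been read, stood in 5 of 32851 promoters (0.0152%), namely Igtp, Irgm2, Tgtp1, Tgtp2 and the related Gm12185. These promoters resemble each other over the whole stretch, with 39 of 40 bases the same in Irgm2 and Igtp and 35 of 40 in Tgtp1 and Tgtp2, so they are not independent cases. Irgm1 shared between 23 and 27 of 40 bases with the others. The annotated Gm12185 gene begins at chr11:48992226 on the minus strand, close to the Tgtp1 stretch, so their matches may be the same bases. A match is a description of the letters and was not tested as a binding site here.

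**Figure D1:**
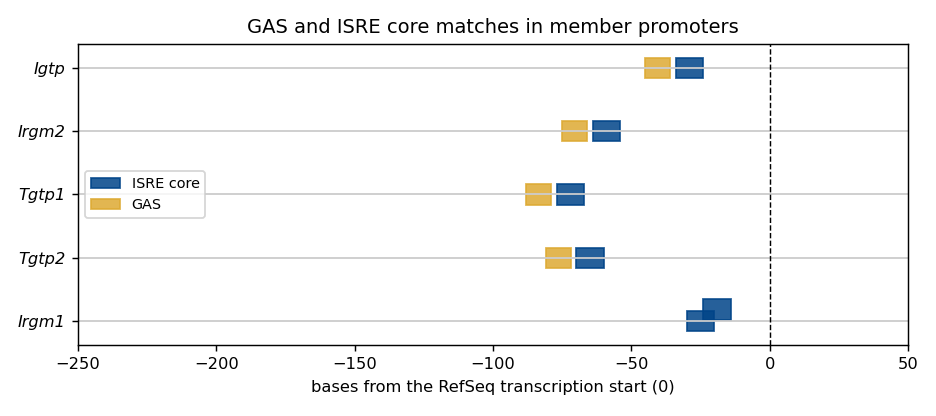
Positions of GAS (yellow) and ISRE core (blue) matches in 5 member promoters, in bases from the RefSeq transcription start. In Igtp, Irgm2, Tgtp1 and Tgtp2 a GAS match lies just before an ISRE core within 88 bases of the start, while Irgm1 has 2 overlapping ISRE cores, drawn at different heights.

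The regulatory members were taken first. Irgm1 (ENSMUSG00000046879; GRCm38 chr11:48861968-48871683, minus strand) had 1705, 1928 and 1546 normalized counts in control replicates 1, 2 and 3, and 904, 1235 and 991 in miR-19a/19b replicates 1, 2 and 3. The groups did not overlap, and replicate 2 was the highest heart of both. The means were 1727 ± 192 and 1043 ± 172 (SD, n = 3), so that the miR-19a/19b hearts stood at 60.4% of control. The log2 fold change was -0.73 (SE 0.14, 95% interval -1.05 to -0.42), with an adjusted p of 0.561 in limma.

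Irgm2 (ENSMUSG00000069874; chr11:58199618-58222782, plus strand) had 1273, 1282 and 1132 normalized counts in the control hearts and 698, 853 and 715 in the miR-19a/19b hearts. The groups again did not overlap, and this was the member with the least spread relative to its difference. The means were 1229 ± 84.1 and 755 ± 84.7 (SD, n = 3), or 61.4% of control. The log2 fold change was -0.71 (SE 0.11, 95% interval -0.96 to -0.45), with an adjusted p of 0.396 in limma, and no gene of the whole table had a lower one. Irgm2 was 9th of 21126 genes when ordered by p.

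Igtp (ENSMUSG00000078853; chr11:58199556-58207591, plus strand) had 959, 899 and 722 normalized counts in the control hearts and 464, 592 and 421 in the miR-19a/19b hearts. The groups did not overlap, and control replicate 3 lay nearest to the miR-19a/19b hearts. The means were 860 ± 123 and 492 ± 88.9 (SD, n = 3), or 57.2% of control, the lowest share of any member. The log2 fold change was -0.81 (SE 0.16, 95% interval -1.16 to -0.45), with an adjusted p of 0.614 in limma.

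The effector members stood at 67.1% to 78.1% of control. Iigp1 (ENSMUSG00000054072; GRCm38 chr18:60376029-60392627, plus strand) had 1447, 1232 and 1071 normalized counts in the control hearts and 821, 1083 and 713 in the miR-19a/19b hearts. The groups overlapped, since miR-19a/19b replicate 2 lay above control replicate 3. The means were 1250 ± 189 and 872 ± 190 (SD, n = 3), or 69.8% of control. The log2 fold change was -0.53 (SE 0.17, 95% interval -0.91 to -0.14), with an adjusted p of 0.9996 in limma.

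Tgtp2 (ENSMUSG00000078921; chr11:49057194-49064206, minus strand) had 246, 238 and 229 normalized counts in the control hearts, the tightest control group of the 6 members, and 137, 197 and 145 in the miR-19a/19b hearts. The groups did not overlap. The means were 238 ± 8.80 and 160 ± 32.6 (SD, n = 3), or 67.1% of control, with a log2 fold change of -0.59 (SE 0.16) and an adjusted p of 0.948 in limma.

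Tgtp1 (ENSMUSG00000078922; chr11:48985327-48994172, minus strand) was the least abundant member, with 40 to 71 reads per heart. It had 78.5, 53.7 and 55.1 normalized counts in the control hearts and 43.0, 60.8 and 42.4 in the miR-19a/19b hearts. The groups overlapped, since miR-19a/19b replicate 2 lay above 2 of the 3 control hearts. The log2 fold change was -0.35 (SE 0.24), and its 95% interval, from -0.89 to 0.20, includes no difference.

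**Figure D2:**
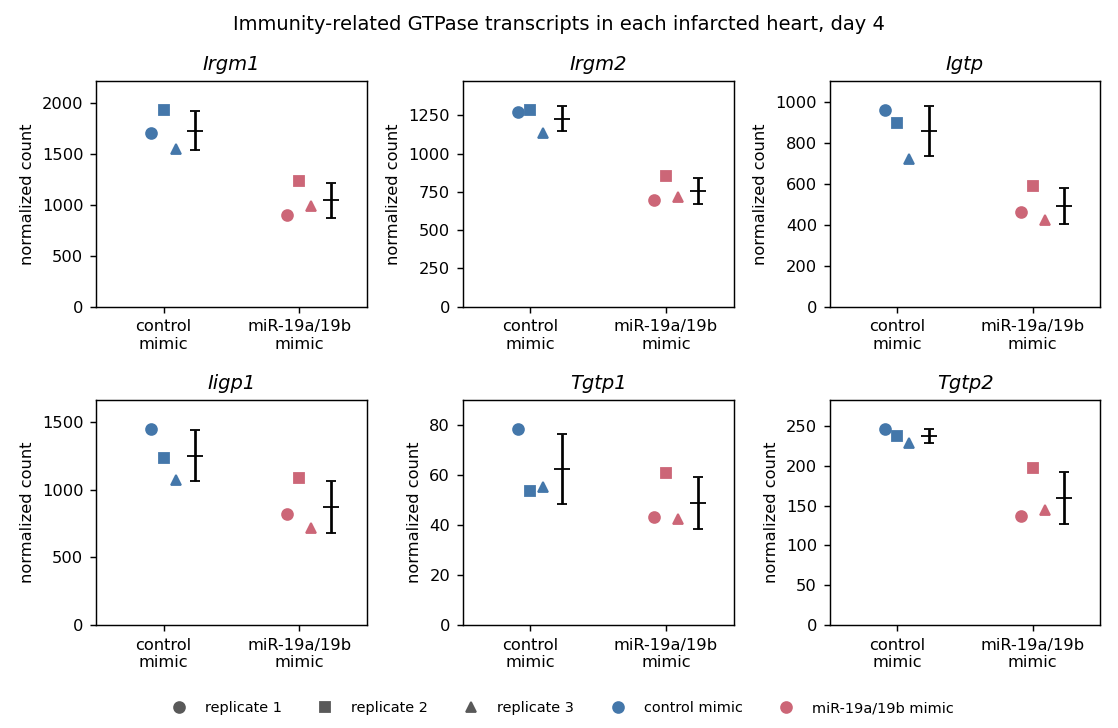
Normalized count of each IRG member in each heart (circle, square and triangle for replicates 1, 2 and 3), with mean and SD of 3 hearts beside each group. For Irgm1, Irgm2, Igtp and Tgtp2 the miR-19a/19b hearts all lie below the control hearts, while for Iigp1 and Tgtp1 miR-19a/19b replicate 2 reaches into the control range.

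Over the members, 0 of 6 passed an adjusted p of 0.05 in limma, as did 0 of all 21126 genes (0%). At an unadjusted p under 0.05, 5 of 6 members were lower and none higher, where 555 of all genes were lower (2.63%) and 293 higher. The groups did not overlap in 4 of 6 members, all lower, where 1120 of all genes (5.3%) were lower without overlap. These shares of all genes, 2.63% and 5.3%, serve for the counts of the lists below as well. The median log2 fold change was -0.65 over the members and 0.0041 over all genes, of which 49.2% were lower. DESeq2 on the recovered reads called Irgm1, Irgm2 and Igtp lower at adjusted p-values of 0.0121, 0.00120 and 0.0133, among 28 genes called lower of the 14154 to which it gave an adjusted p (0.198%). With edgeR and with limma-voom no gene passed. Over the settings that used all 6 hearts the adjusted p ran from 0.0121 to 0.845 for Irgm1, from 0.00120 to 0.845 for Irgm2 and from 0.0133 to 0.845 for Igtp.

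Limma called these 3 genes without the library labelled miR-19a/19b replicate 3 and not with it. Without it, limma gave adjusted p-values of 0.0267 for Irgm1, 0.0178 for Irgm2 and 0.0293 for Igtp, while 164 genes were called lower and 383 higher over the whole table. With any other heart left out, the adjusted p of these 3 genes was 0.464 or more. Unadjusted p-values in limma were 0.00029 for Irgm1, 7.6e-05 for Irgm2 and 0.00038 for Igtp without replicate 3. Without miR-19a/19b replicate 2 they were 0.00024, 0.00018 and 0.00030. The adjusted p also depends on all other genes. Without replicate 3, 1289 genes were lower and 1778 higher at an unadjusted p under 0.05, against 414 and 208 without replicate 2. The differences themselves were close to those with all hearts. Without miR-19a/19b replicate 3 they were -0.70 for Irgm1, -0.67 for Irgm2 and -0.70 for Igtp on the log2 scale. For Iigp1, Tgtp1 and Tgtp2 they were -0.40, -0.26 and -0.53. Without the library labelled miR-19a/19b replicate 1, which held the skeletal muscle transcripts, they were -0.64, -0.65 and -0.77 for Irgm1, Irgm2 and Igtp, and -0.50, -0.27 and -0.49 for Iigp1, Tgtp1 and Tgtp2.

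The members shared much of their variation from heart to heart. Among the miR-19a/19b hearts, replicate 2 was the highest for 6 of 6 members, at 68.8% (Igtp) to 97.4% (Tgtp1) of each member's control mean. Replicate 1 lay between 52.3% (Irgm1) and 68.9% (Tgtp1), and replicate 3 between 48.9% (Igtp) and 67.9% (Tgtp1). Replicates 1 and 3 were each the lowest heart for 3 members. Among the control hearts, replicate 3 was never the highest and lay between 84.0% (Igtp) and 96.2% (Tgtp2). The 6 values of a gene family share their libraries, so these positions are not 6 independent readings.

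To compare levels between genes, normalized counts were divided by the length that the file gives for each gene. In the control hearts the order per kilobase was Igtp (425 ± 61.0, SD, n = 3), Iigp1 (400 ± 60.5), Irgm2 (333 ± 22.8), Irgm1 (297 ± 33.0), Tgtp2 (81.0 ± 2.99) and Tgtp1 (19.5 ± 4.34). The range of each of the first 3 genes overlapped that of the next, although every control heart on its own had this same order. Irgm1 and Tgtp2 did not overlap, nor did Tgtp2 and Tgtp1. In the miR-19a/19b hearts Iigp1 (280 ± 60.9) stood above Igtp (243 ± 44.0), in each heart but with overlapping ranges. The order of the other 4 was as in the control hearts. The order of the first 4 depends on the length used, a choice examined after the data were seen. With the longest annotated coding transcript, 2259 bases for Irgm1 in place of 5810 in the file, Irgm1 stood highest in the control hearts at 764 ± 85.0 per kilobase. With all annotated exons, 5823 bases for Iigp1 in place of 3121, Iigp1 stood below the 3 regulators at 215 ± 32.4. Tgtp2 and then Tgtp1 stood below the other members in both groups with each of the 3 lengths. The levels of both Tgtp genes are uncertain, because much of their transcripts is the same, as described below.

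**Figure D3:**
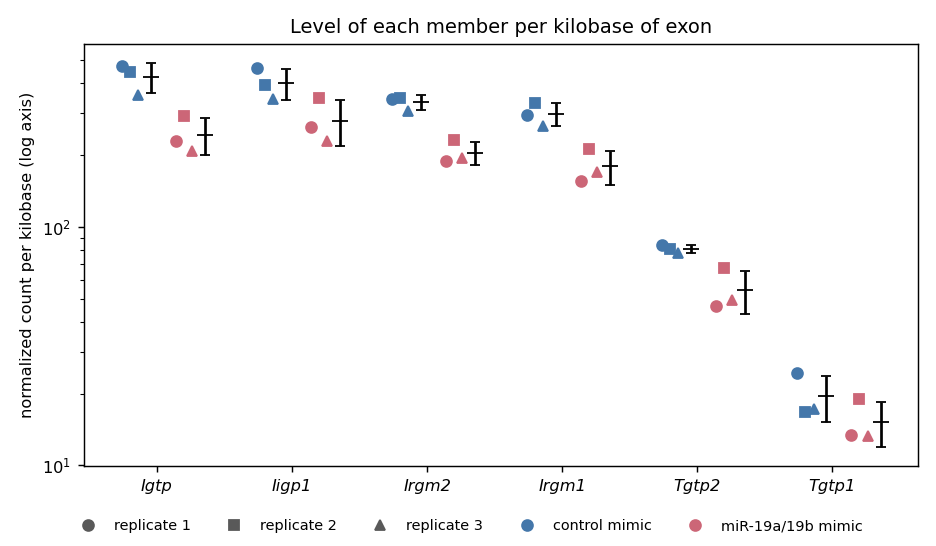
Normalized count per kilobase of gene length for each member and heart, on a log axis, with mean and SD of 3 hearts. In the control hearts Igtp, Iigp1, Irgm2 and Irgm1 lie between 266 and 474, Tgtp2 between 77.9 and 83.9, and Tgtp1 between 16.8 and 24.5. The levels of Tgtp2 and Tgtp1 are uncertain, since a read may fit both genes.

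How reads were shared among these genes bears on the levels. The coding sequences of Tgtp1 and Tgtp2 were the same at 1241 of 1245 bases (99.7%). Of the stretches of 150 bases in their transcripts, the length of 1 read, 74.1% in Tgtp1 and 71.7% in Tgtp2 occurred in the other gene or another. How the counting treated reads that fit both genes is not given in the sources used here. The split between the Tgtp genes and the low levels of both are therefore uncertain. If such reads were left out of the counts, the sum of the Tgtp genes lacks them too. Summed as 1 gene, Tgtp1 and Tgtp2 had 325, 292 and 284 normalized counts in the control hearts and 180, 258 and 188 in the miR-19a/19b hearts, without overlap. The log2 fold change of this sum was -0.54 (SE 0.16), with an adjusted p of 0.9996 in limma. Igtp and Irgm2 share 162 exonic bases on the same strand, which is 8.01% of Igtp and 4.39% of Irgm2, because the annotated Irgm2 gene begins near the start of Igtp. The RefSeq start of Irgm2 used for its promoter lies within that gene, downstream of Igtp. Those of Tgtp1 and Irgm1 also lie within their annotated genes. Tgtp1 shares 223 bases (6.96%) with Gm12185. No member shares exonic bases with a gene on the other strand in GENCODE M21. The regulators were the same at 67.0% to 70.9% of aligned coding positions, and Iigp1 and the Tgtp genes at 62.7% to 62.8%, whereas a regulator and an effector shared 56.9% to 58.0%.

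Of the members, 5 lie in 2 stretches of chromosome 11, and IRG genes beside them were also lower. Of 6 such neighbours tested, 4 were lower at an unadjusted p under 0.05 (2.63% of all genes), with a median log2 fold change of -0.67. All of these neighbours but Ifi47 are counted again among the IRG relatives below. Of 12 other genes in the same stretches, none had an unadjusted p under 0.05 in either direction, and their median was -0.0011. Their log2 fold changes ran from -0.60 (Gm12188) to 0.98 (Olfr1396), and both ends of this range rest on few reads. Gm12188 had means of 4.53 and 2.64 normalized counts in the control and miR-19a/19b hearts, and Olfr1396 had 0.976 and 2.41. Gm12186 was also low, at 1.98 and 1.69, so for such genes a lack of a call says little. Olfr56, whose annotated span holds the Tgtp genes and also, on its own strand, the IRG gene Ifi47, had -0.59. Whether reads of Ifi47 entered the count of Olfr56 was not tested. Psme2b, between Irgm1 and Tgtp1, had -0.25, while Mrpl22 before Igtp had 0.03, Trim7 near Irgm1 had -0.0037 and Btnl9 beyond Tgtp2 had 0.25. The neighbours were chosen by position after earlier results were known. Ifi47 (IRG-47 or Irgd), a family member next to Tgtp2 outside the fixed lists, had 369, 550 and 383 normalized counts in the control hearts and 187, 332 and 320 in the miR-19a/19b hearts. Its groups did not overlap, and its log2 fold change was -0.65 (SE 0.24), with an adjusted p of 0.9996 in limma.

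Of 17 symbols listed as IRG relatives, several of them alternative names, 11 were in the file and 10 were tested. At an unadjusted p under 0.05, 6 of 10 were lower (2.63% of all genes) and none higher, and 0 of 10 passed an adjusted p of 0.05 in limma. The groups did not overlap in 7, all lower, where 5.3% of all genes were lower without overlap. The median was -0.76 on the log2 scale. Gm4841 had the largest difference of the list, with 336, 215 and 145 normalized counts in the control hearts and 51.6, 99.0 and 39.8 in the miR-19a/19b hearts. Its mean stood at 27.4% of control, the log2 fold change was -1.88 (SE 0.38), and DESeq2 called it lower, while the adjusted p in limma was 0.632. On the same chromosome as Iigp1 and Gm4841, F830016B08Rik had a log2 fold change of -0.997 (SE 0.305) and Gm4951 one of -0.83 (SE 0.21).

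Gm12250 (Irgb10), an effector known to act on bacterial membranes, had 186, 241 and 150 normalized counts in the control hearts and 76.4, 117 and 134 in the miR-19a/19b hearts, without overlap and with a log2 fold change of -0.83 (SE 0.24). Gm5431 had one of -0.69 (SE 0.20), and Gm12185, at 11 to 50 reads per heart, one of -1.17 (SE 0.34). The less studied 9930111J21Rik2 and 9930111J21Rik1 had -0.32 (SE 0.15) and -0.30 (SE 0.22) and did not pass the unadjusted threshold. Irgq, a relative that is not known as an interferon-induced gene, had 852 to 893 normalized counts in the control hearts and 750 to 994 in the miR-19a/19b hearts. Its groups overlapped, and its log2 fold change was -0.06 (95% interval -0.35 to 0.22). Irgc1, known from testis, had at most 5 reads in any heart, and Gm12187 at most 2 and was not tested.

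**Figure D4:**
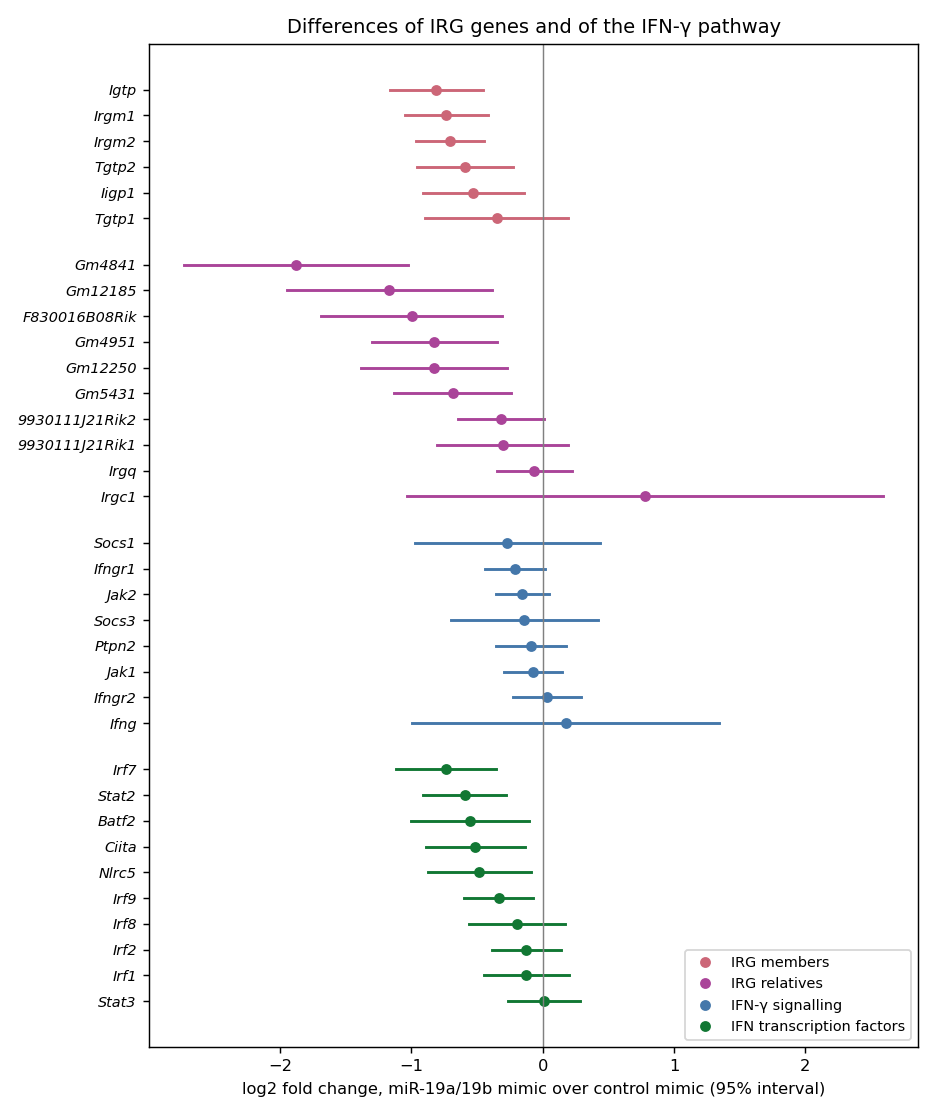
Log2 fold change (miR-19a/19b over control mimic, from limma) with its 95% interval for the 6 members, 10 tested IRG relatives, 8 genes of IFN-γ signalling and 10 interferon transcription factors. The intervals of 5 members lie below 0 and that of Tgtp1 crosses it, and those of the 8 signalling genes all include 0.

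The IFN-γ pathway was followed from ligand to feedback inhibitors. Ifng itself had 1 or 2 reads in every heart, so a difference in the ligand was not detectable at this depth. The receptor chain Ifngr1 had 3178 to 3613 normalized counts in the control hearts and 2824 to 3080 in the miR-19a/19b hearts, without overlap, and a log2 fold change of -0.21 (SE 0.10) that did not pass the unadjusted threshold. Ifngr2, the other chain, had one of 0.03 (SE 0.12). The kinases Jak1 and Jak2 had -0.07 (SE 0.10) and -0.15 (SE 0.09), both without overlap between the groups. The feedback inhibitors Socs1, Socs3 and the phosphatase Ptpn2 had -0.27 (SE 0.31), -0.14 (SE 0.25) and -0.09 (SE 0.12), all with overlapping groups. Of these 8 genes, 3 were lower without overlap (5.3% of all genes), but 0 were lower and 0 higher at an unadjusted p under 0.05 in limma, and the median was -0.12. With edgeR and DESeq2 0 were lower at this threshold as well. Without miR-19a/19b replicate 3 the count lower was 1 of 8.

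Of 10 transcription factors that act in interferon responses, 6 were lower at an unadjusted p under 0.05, none was higher and none passed the adjusted threshold in limma. Their median was -0.41. Irf7, the amplifier of type I interferon responses, had 4886, 6030 and 4175 normalized counts in the control hearts and 2764, 3626 and 2674 in the miR-19a/19b hearts, with a log2 fold change of -0.73 (SE 0.17). Stat2 and Irf9, which act at ISRE elements, had -0.59 (SE 0.14) and -0.33 (SE 0.12). Ciita and Nlrc5, which drive MHC class II and class I genes, had -0.51 (SE 0.17) and -0.48 (SE 0.17), and Batf2 had -0.55 (SE 0.20). Irf1, which IFN-γ induces and which acts on many of the same promoters, had 706 to 841 normalized counts in the control hearts and 599 to 857 in the miR-19a/19b hearts. Its groups overlapped, and its log2 fold change was -0.13 (95% interval -0.45 to 0.20). Irf2, Irf8 and Stat3 had -0.13 (SE 0.12), -0.20 (SE 0.16) and 0.01 (SE 0.12), with overlapping groups. Without control replicate 2 the count lower at an unadjusted p under 0.05 was 2 of 10.

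The guanylate-binding proteins, larger GTPases that work beside IRGs on pathogen vacuoles, had 5 of 10 tested genes lower at an unadjusted p under 0.05, none higher and a median of -0.45. Gbp7 had 754, 810 and 790 normalized counts in the control hearts and 503, 611 and 569 in the miR-19a/19b hearts, with a log2 fold change of -0.49 (SE 0.11). Gbp8, at 15 to 46 reads per heart, had -1.11 (SE 0.29), and Gbp3 had -0.54 (SE 0.15). This count was 3 of 10 without control replicate 1, control replicate 2 or miR-19a/19b replicate 1, and 8 of 10 without miR-19a/19b replicate 2. Autophagy conjugation genes, some of which are needed to load IRGs onto the right membrane, had 0 of 15 past the unadjusted threshold in either direction and a median of 0.07. The 3 with the lowest p were Map1lc3b, Atg16l1 and Becn1, with log2 fold changes of 0.19 (SE 0.12), 0.14 (SE 0.11) and -0.14 (SE 0.11).

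Other IFN-γ targets had 8 of 12 genes lower at an unadjusted p under 0.05, none higher and a median of -0.49, and the count was 5 of 12 without control replicate 1. The 3 with the lowest p present antigen on MHC class II, H2-Eb1 with a log2 fold change of -0.51 (SE 0.12), H2-Aa with -0.53 (SE 0.13) and Cd74 with -0.59 (SE 0.16). Genes induced mainly by type I interferon had 13 of 13 lower at an unadjusted p under 0.05 (2.63% of all genes), 13 of 13 without overlap (5.3% of all genes) and a median of -0.85. The 3 with the lowest p were Ifi44 with -1.18 (SE 0.19), Ifit2 with -0.72 (SE 0.12) and the oligoadenylate synthetase Oas3 with -0.93 (SE 0.16). Of the cytokines that raise IFN-γ, Il18 had a log2 fold change of -0.53 (SE 0.23), Il15 had 0.20 (SE 0.20) and Il12b, at a mean of 5.87 and 3.38 normalized counts, had -0.51 (SE 0.58). Of 4 tested, 1 was lower at an unadjusted p under 0.05 in limma, with a median of -0.27, and 0 were with edgeR, DESeq2 or limma-voom or without any 1 heart other than miR-19a/19b replicate 3.

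Markers of some leukocytes were also lower in the miR-19a/19b hearts, and others were not. Of 9 NK cell markers, 7 were lower at an unadjusted p under 0.05, with a summed level of 329 to 627 normalized counts in the control hearts and 215 to 263 in the miR-19a/19b hearts. Of 9 T cell markers 3 were lower, with sums of 252 to 374 and 204 to 241. Of 5 monocyte markers 4 were lower, with sums of 4691 to 6186 and 2819 to 4116. Of 5 dendritic cell markers 3 were lower, with sums of 694 to 724 and 615 to 672. The other dendritic cell markers were not lower. Zbtb46, the most abundant of this list, had means of 421 and 422 in the control and miR-19a/19b hearts, and Clec9a had 98.6 and 111. None of these sums overlapped between the groups. Of 10 macrophage markers none passed the unadjusted threshold, and the sums overlapped, with 88950 to 105100 and 73320 to 111500. The same was so for 8 endothelial and 8 fibroblast markers, none of which passed. Of the other lists, 1 of 7 neutrophil, 0 of 5 B cell, 0 of 9 cardiomyocyte, 1 of 4 smooth muscle and 2 of 5 erythrocyte markers were lower at an unadjusted p under 0.05, with sums that overlapped. No marker of any list was at 0 in all hearts. The part of these cells in the members' lower values was not tested, and in RNA from whole ventricles fewer cells of a type and less RNA per cell cannot be told apart.

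The hearts with the lowest members were not alike in muscle content. The cardiomyocyte sum was 951000 normalized counts in miR-19a/19b replicate 1 and 329800 in replicate 3, the ends of its range over all hearts. The members summed to 3066 and 3027 normalized counts in the same hearts, against 4020 in miR-19a/19b replicate 2 and 4755 to 5710 in the control hearts. Mean deviations from control over the list, on the log2 scale, were -0.75, -0.34 and -0.77 for the members in miR-19a/19b replicates 1, 2 and 3, and -1.21, -0.69 and -0.84 for NK cell markers, with replicate 2 the highest for both. Replicate 2 was the highest as well for erythrocyte markers, at -0.35, -0.17 and -1.06, and for endothelial markers, at 0.0045, 0.060 and -0.0019. Of the gene lists, it was the highest for guanylate-binding proteins, at -0.72, -0.19 and -0.74, and for type I interferon targets, at -1.24, -0.61 and -0.67. IRG relatives had -0.86, -0.46 and -0.57. Replicate 3 was the highest for IFN-γ targets, at -0.66, -0.31 and -0.21, and for interferon transcription factors, at -0.49, -0.34 and -0.26. The deviations were -1.22, -0.74 and -0.58 for monocyte markers, -0.65, -0.53 and -0.52 for T cell markers and -0.39, -0.18 and 0.17 for macrophage markers, with replicate 3 the highest. For dendritic cell markers they were -0.41, -0.57 and -0.33, with replicate 2 the lowest.

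**Figure D5:**
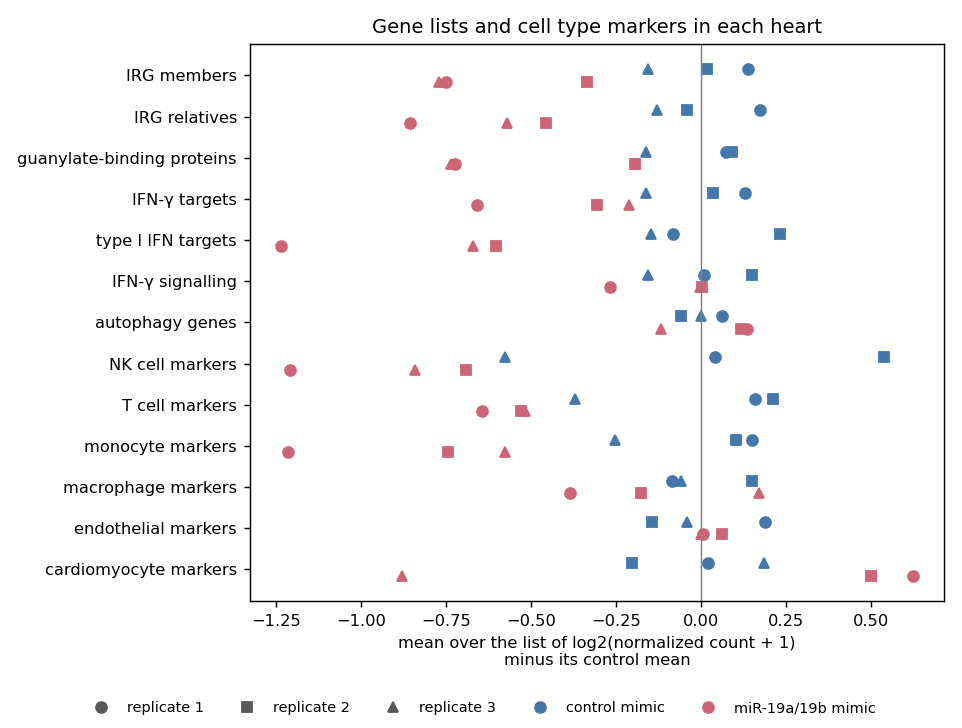
Mean over each list of log2(normalized count + 1) minus the control mean of each gene, for every heart (circle, square and triangle for replicates 1, 2 and 3). The miR-19a/19b hearts lie below the control hearts for the IRG members, their relatives, guanylate-binding proteins, interferon targets and NK cell, T cell and monocyte markers, while macrophage, endothelial and autophagy lists overlap and cardiomyocyte markers split the miR-19a/19b hearts.

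The genes whose pattern over the 6 hearts was most like that of the members were sought among 11604 genes with a mean of at least 100 normalized counts. The measure was Pearson's r with the mean of the members after each was centred and scaled, and it includes the difference between the groups. The 5 highest were Gm4841 (0.991), Drg1 (0.990), B2m (0.990), Yipf6 (0.986) and Klra2 (0.985). Gm4841 is an IRG relative, B2m is the light chain of MHC class I and Klra2 is a receptor of the Ly49 family. Drg1, a GTPase outside this family, and Yipf6 followed the order of the hearts but hardly their size, with 1164 to 1250 normalized counts for Drg1 over all hearts. With 6 hearts and this many genes compared, such values of r are a description only.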

How the data were processed

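RNA-seq libraries of 6 infarcted mouse hearts were grouped by their labels, 3 hearts to each mimic. Per the study's methods and the submitters' processing notes, paired reads were aligned with STAR (2.5.1b) and counted per gene with HTSeq (0.6.0). Per the labels the libraries were made with a NEBNext Ultra RNA kit, whose standard form does not mark strand. The signal values the authors deposited are counts divided by a size factor per library, between 0.905 and 1.16. In each library 100% of values were whole multiples of 1 read (tolerance 0.001), so reads could be recovered. The notes name mm9, but of 25884 gene identifiers found in GENCODE M21 (GRCm38) 82.7% lay at identical positions, so GRCm38 positions are printed. Gene lengths are those the authors deposited. A table of the authors' own fold changes and p-values was not used.

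The groups were compared with limma (3.58.1, R 4.3.3), two-sided, with a trended prior, over all 21126 genes with a mean of at least 1, adjusted by the Benjamini and Hochberg method. It used log2(normalized count + 1), in which the added 1 understates differences of low genes. Depth per heart was between 19398196 and 23645308 reads on genes, so genes near the minimum mean of 1 rest on very few reads. Alternatives were edgeR (4.0.16) with TMM, DESeq2 (1.42.0) and limma-voom on recovered reads, a pseudocount of 0.1, no filter, at least 10 in every heart, the replicate number as a block, each heart left out, and Tgtp1 and Tgtp2 summed. Coding sequences were aligned with edlib (1.3.9.post1).

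Named are the 6 members, every relative, IFN-γ signalling gene and interferon transcription factor in the file, the 3 genes with the lowest p of each other pathway list, and the 5 genes most like the members. Ifi47 and the neighbours by position are outside this rule. The members and lists were chosen with earlier results of these data known. No set test was run. An item of the IFN-γ signalling list is not reported here and stays out of its counts.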

Additional observations from a re-analysis of the deposited data

How the results depend on the processing

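The 6 log2 fold changes stayed negative under every alternative run. With each heart left out in turn they ranged from -0.86 to -0.64 for Irgm1, from -0.80 to -0.65 for Irgm2, from -0.95 to -0.70 for Igtp, from -0.70 to -0.40 for Iigp1, from -0.75 to -0.49 for Tgtp2 and from -0.52 to -0.18 for Tgtp1. Irgm1, Irgm2 and Igtp passed the adjusted threshold with DESeq2, at -0.73, -0.70 and -0.81, and in limma without miR-19a/19b replicate 3, and under no other alternative run. DESeq2 called 28 genes lower and 1 higher, and put 177 higher at an unadjusted p under 0.05, a number that was 146 with at least 10 normalized counts in every heart. Leaving out hearts gave 0 to 164 genes lower and 0 to 383 higher at an adjusted p under 0.05, and 369 to 1289 lower and 208 to 1778 higher at an unadjusted p under 0.05, the highest of each without miR-19a/19b replicate 3; the cause was not tested.

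At an unadjusted p under 0.05, the members lower numbered 5 under each alternative with 6 hearts and 4 or 5 with a heart left out. With hearts left out the guanylate-binding proteins lower numbered 3 to 8, IFN-γ signalling genes 0 to 1, IFN-γ targets 5 to 10, interferon transcription factors 2 to 8, and IFN-γ inducers 0 to 1. The count of inducers was 0 with edgeR, DESeq2, limma-voom, at least 10 in every heart and the replicate block.

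Deviations of hearts with the same replicate number correlated at -0.0085, -0.021 and -0.11. Each group of 3 was centred first, which holds such correlations near 0 on average. They therefore cannot settle whether hearts with the same number were paired, which the labels do not say. With the replicate number as a block, 434 genes were lower and 207 higher at an unadjusted p under 0.05, none passed the adjusted threshold, and Irgm1, Irgm2 and Igtp had an adjusted p of 0.845 in limma. With 3 hearts per group, differences near the spread between hearts, as for Tgtp1, could not be resolved.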
